A study of Mus musculus with 2 samples.

Results

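The miRNA hairpins of the Mirg part of the imprinted Dlk1-Dio3 domain were examined in sRNA (small RNA) libraries of J1 mouse ES cells, a line of embryonic stem cells. Members were all miRNA hairpins of the GENCODE annotation of the chromosome 12 plus strand (GRCm38) that start between Mir379 and Mir3072, from chr12:109709060 to 109747960. There were 39 such hairpins out of 1175 mouse miRNA hairpins used, and Gm27379, which carries no Mir symbol, was among them. Of the 39, 25 lay upstream of the annotated start of Mirg, a long noncoding RNA (chr12:109729764-109749460), so the name describes a stretch of the domain rather than a host gene for every member. Another 4 (Mir134, Mir485, Mir377 and Mir410) lay in a Mirg exon, 5 (Mir382, Mir668, Mir412, Mir369 and Mir3072) crossed an exon-intron boundary of Mirg, and 5 (Mir453, Mir154, Mir496a, Mir541 and Mir409) lay in a Mirg intron.

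The study asked how AICAR changes the miRNAs of these cells. AICAR is a cell-permeable nucleoside that cells convert into an analogue of AMP and that is used to activate the AMP-activated protein kinase. J1 cells kept on gelatin in medium with LIF received 1 mM AICAR or the same volume of its solvent DMSO, and were collected after 24 h. Each condition is represented by 1 library of the same unmodified line, so no difference below has a replicate check, and no test between the conditions was made. The intervals take in counting error alone and treat each read as a separate molecule. PCR reads that carry no molecular identifier do not stand for separate molecules, so the intervals can be too narrow even for that error. The DMSO library held 18870345 clean reads, of which 2180916 matched a miRNA hairpin, and the AICAR library held 21091226, of which 3314717 matched. Levels are given as RPM, reads scaled to 1000000 clean reads, and 3 reads, taken as the floor, correspond to 0.159 RPM in DMSO and 0.142 RPM in AICAR.

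The Dlk1-Dio3 domain is imprinted: its noncoding RNAs and the miRNAs within them come from the maternal chromosome, whereas the protein-coding genes Dlk1, Rtl1 and Dio3 are transcribed from the paternal one. The miRNAs at its distal end form one of the largest miRNA clusters of placental mammals, are abundant in brain, and have been used as a sign of an intact maternal domain in mouse ES and iPS cells. Each hairpin is cut by Drosha and Dicer into a 5p and a 3p arm, either of which can be loaded into an Argonaute protein, and the seed, the bases next to the 5′ end, directs the choice of target mRNAs.

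Reads were found on 37 of the 39 hairpins, and Mir654 and Mir453 had none in either library. They fell on 71 arms, of which 56 reached 1 RPM in at least 1 library and entered the comparison of the conditions. In all, 36 arms reached 10 RPM and 15 reached 100 RPM in at least 1 library, and the 15 arms below 1 RPM had at most 16 reads in a library. In total, 121337 reads in DMSO and 77801 in AICAR matched the stretch, as 653 and 567 distinct tags.

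The sequences below are those that carry the comparison. All are mature miRNAs from RefSeq, on the plus strand of GRCm38.p6, written 5′ to 3′ with the seed (bases 2 to 8) in capitals. The first set holds the 18 arms whose level in AICAR was at most 0.5 times that in DMSO, shown because they are the members furthest below equality.
miR-379-5p (chr12:109709065-109709085): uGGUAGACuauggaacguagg
miR-379-3p (chr12:109709102-109709123): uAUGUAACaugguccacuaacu
miR-411-5p (chr12:109710190-109710210): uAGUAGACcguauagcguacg
miR-1197-3p (chr12:109712396-109712416): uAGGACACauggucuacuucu
miR-323-5p (chr12:109712523-109712544): aGGUGGUCcguggcgcguucgc
miR-323-3p (chr12:109712558-109712578): cACAUUACacggucgaccucu
miR-758-5p (chr12:109712823-109712843): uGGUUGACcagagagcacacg
miR-1193-5p (chr12:109715716-109715735): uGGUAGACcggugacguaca
miR-300-3p (chr12:109724363-109724384): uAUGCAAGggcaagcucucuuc
miR-381-3p (chr12:109726870-109726891): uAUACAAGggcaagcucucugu
miR-382-3p (chr12:109733819-109733840): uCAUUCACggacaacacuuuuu
miR-134-5p (chr12:109734145-109734166): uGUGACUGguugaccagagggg
miR-154-3p (chr12:109738474-109738495): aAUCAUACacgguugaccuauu
miR-377-5p (chr12:109740515-109740536): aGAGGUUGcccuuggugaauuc
miR-541-3p (chr12:109742466-109742487): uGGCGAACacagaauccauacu
miR-412-3p (chr12:109743340-109743359): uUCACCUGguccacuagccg
miR-410-5p (chr12:109743729-109743749): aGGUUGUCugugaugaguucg
miR-3072-5p (chr12:109747893-109747914): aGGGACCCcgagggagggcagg

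The next set holds the 7 compared arms whose level in AICAR was not below that in DMSO, shown because they go against the direction of the other members.
miR-299a-5p (chr12:109710644-109710665): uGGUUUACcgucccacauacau
miR-758-3p (chr12:109712858-109712876): uUUGUGACcugguccacua
miR-329-5p (chr12:109713503-109713524): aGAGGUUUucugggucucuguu
miR-329-3p (chr12:109713541-109713562): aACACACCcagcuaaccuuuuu
miR-666-3p (chr12:109717140-109717161): gGCUGCAGcgugaucgccugcu
miR-668-3p (chr12:109734774-109734797): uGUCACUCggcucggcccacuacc
miR-3072-3p (chr12:109747928-109747949): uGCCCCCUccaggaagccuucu

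The last set holds 6 abundant arms with a ratio between those bounds, shown because their tags of different length moved apart or because they are among the main products of the stretch.
miR-543-3p (chr12:109717304-109717325): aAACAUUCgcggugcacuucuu
miR-376a-3p (chr12:109723824-109723844): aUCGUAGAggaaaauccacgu
miR-382-5p (chr12:109733781-109733802): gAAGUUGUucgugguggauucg
miR-485-3p (chr12:109734946-109734967): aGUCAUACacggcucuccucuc
miR-541-5p (chr12:109742422-109742446): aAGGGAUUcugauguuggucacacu
miR-410-3p (chr12:109743764-109743784): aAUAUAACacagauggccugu

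These sequences are related to each other in ways the positional rule did not use. RefSeq held 71 mature sequences on 38 of the hairpins, with 65 distinct seeds. Only 6 seeds stood on more than 1 arm of the stretch. The seed GGUAGAC was shared by miR-379-5p and miR-1193-5p, and AUGUAAC by miR-379-3p and miR-411-3p. In the same way, GGUUGUC stood on miR-494-5p and miR-410-5p, GGUUGAC on miR-758-5p and miR-1197-5p, GGUUGCC on miR-453 and miR-496a-5p, and UGGAUAU on miR-376c-5p and miR-376b-5p. Another 11 seeds also occurred on an arm outside the stretch, such as ACACACC on miR-329-3p and miR-362-3p. Beyond the seeds, the letters GGU at bases 2 to 4 were found in 14 of the 36 mature 5p sequences (38.9%), against 11 of 661 (1.66%) of the 5p sequences of all other hairpins in RefSeq. The 3p arms had their own recurring letters. GGUNNAC, with N for any base, occurred anywhere in 12 of 34 mature 3p sequences (35.3%), against 4 of 675 (0.593%) elsewhere. It occurred also in 8 of the 36 5p sequences, where it can overlap the GGU just counted. Both motifs were searched on the strand of the miRNA only and were chosen after the sequences had been seen, and the counts describe letters shared by neighbouring hairpins, not binding sites.

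Taken as a sum over arms, the stretch gave 119500 reads in DMSO and 76810 in AICAR, or 6333 and 3642 RPM. The ratio of AICAR to DMSO was 0.575 (95% exact interval 0.570 to 0.580). Over all other hairpins the sum moved the other way, from 108552 to 152869 RPM, a ratio of 1.41. The members therefore took 5.56% of all hairpin reads in DMSO (95% Wilson interval 5.53 to 5.59) and 2.35% in AICAR (2.33 to 2.36). The ratio of the sum was 0.553 (0.546 to 0.560) for the hairpins upstream of Mirg and 0.604 (0.595 to 0.612) for those within it, while the median arm ratios stood in the other order, at 0.624 and 0.565.

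Compared arm by arm, the median ratio was 0.610 over the 56 compared arms of the stretch, against 1.10 over the 508 compared arms of all hairpins. On the log2 scale these medians are -0.71 and 0.13. The ratio was below 1 for 49 of the 56 arms (87.5%), where 43.1% of all compared arms were below 1. It was at most 0.5 for 18 arms, or 32.1% of them, beside 10% of all compared arms. No arm reached a ratio of 2, beside 12% of all compared arms, and the highest was 1.47. The counting interval of the ratio lay wholly below 1 for 44 arms, beside 27% of all compared arms, and wholly above 1 for 3, beside 39%. The members made up 11% of all compared arms and 35.3% of the arms at or below 0.5. Scaling moved these levels together: relative to hairpin reads in place of clean reads, the median log2 ratio of all compared arms was -0.31, and the median of the stretch minus that of all arms was -0.84 with either scaling. The direction of the arms nearest equality depended on it, since 2 arms (miR-299a-5p and miR-666-3p) in place of 7 had a ratio of at least 1 relative to hairpin reads. With Fisher's exact test of the reads added to the fold (p at most 0.01), 17 members were lower, beside 9.45% of all compared arms, and 0 were higher, beside 11.2%. That test compares these 2 libraries and not the conditions.

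**Figure D1:**
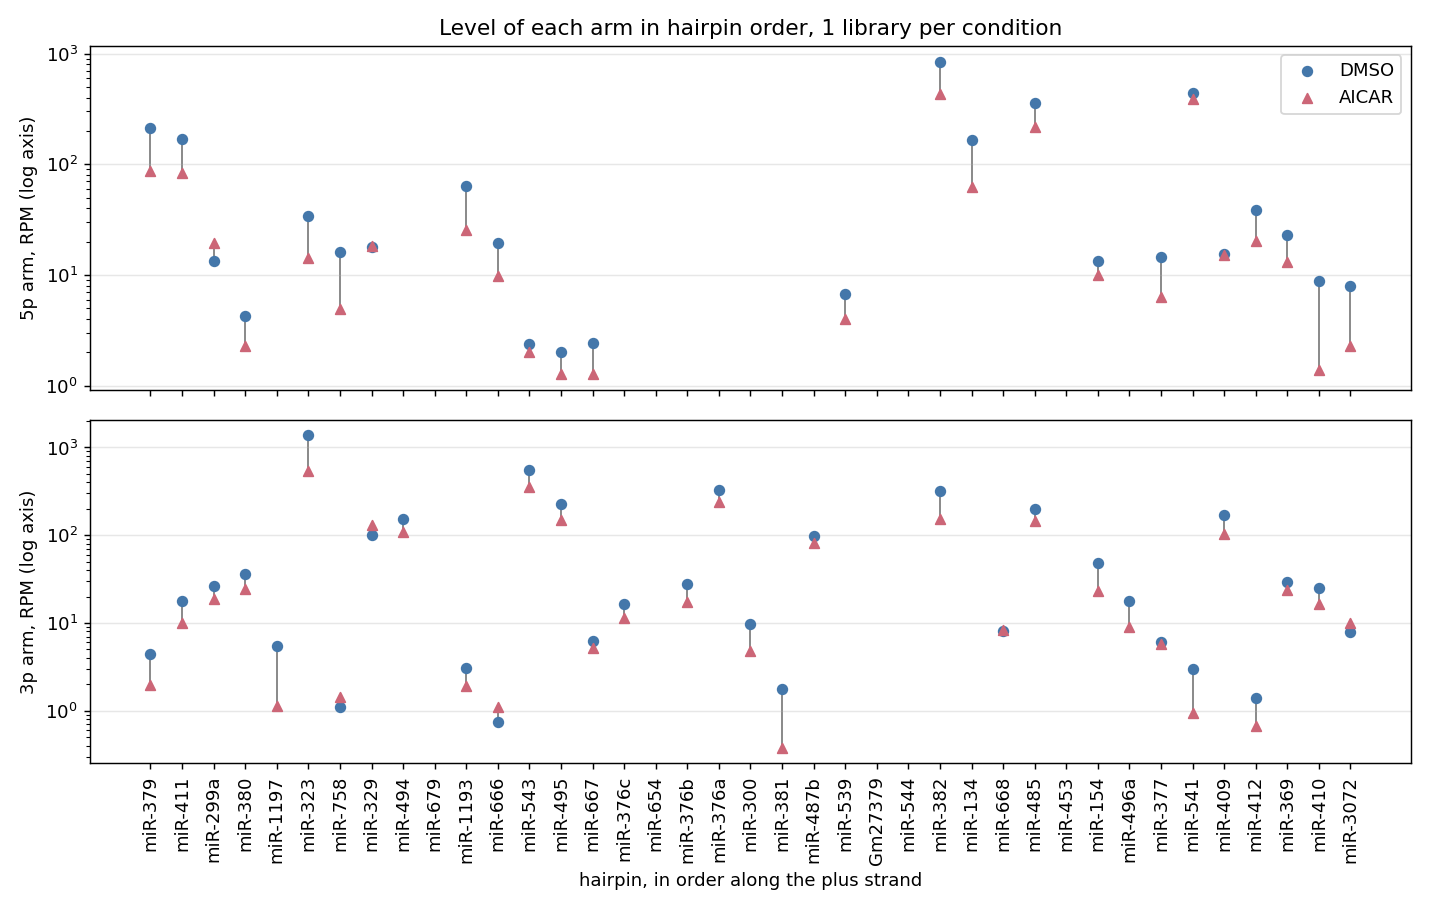
Level of each compared arm in DMSO (circles) and AICAR (triangles) in RPM on a log axis, with 5p arms above and 3p arms below and hairpins in their order along the plus strand; there is 1 library per condition. Most triangles sit below their circles, and miR-323-3p is the highest point, at 1378 RPM in DMSO and 533 in AICAR.

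A few arms held most of the reads. The most abundant was miR-323-3p, with 26011 reads (1378 RPM) in DMSO and 11251 (533 RPM) in AICAR, a ratio of 0.387 (0.379 to 0.396). This 1 arm made up 21.8% of the arm reads of the stretch in DMSO and 14.6% in AICAR. Next came miR-382-5p, with 847 and 434 RPM, a ratio of 0.512 (0.499 to 0.526). The partner arms of these hairpins had ratios near theirs. miR-382-3p went from 317 to 155 RPM (0.488, 0.467 to 0.509) and miR-323-5p from 34.1 to 14.4 RPM (0.421, 0.366 to 0.483). The third in level in DMSO was miR-543-3p, among several miRNAs here known to act on the mRNA of N-cadherin, with 553 and 352 RPM and a ratio of 0.636 (0.617 to 0.655). miR-541-5p kept most of its level, at 443 RPM in DMSO and 386 in AICAR, a ratio of 0.871 (0.845 to 0.898). The 5 most abundant arms held 56.6% of the arm reads in DMSO and 52.8% in AICAR, and the 10 most abundant 76.8% and 74.1%.

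In hairpin order, the stretch opens with a run of arms near or under 0.5. miR-379-5p, the first member and the one that names the cluster, had 3993 reads (212 RPM) in DMSO and 1829 (86.7 RPM) in AICAR, a ratio of 0.410 (0.388 to 0.433). Its 3p arm had 84 and 41 reads, a ratio of 0.437 (0.293 to 0.642). That ratio was 0.756 with 1 mismatch allowed, in a count that can take in tags near the similar miR-411-3p. miR-411-5p followed, at 170 and 84.1 RPM (ratio 0.495, 0.467 to 0.525), with miR-411-3p at 17.9 and 10.1 RPM (0.564, 0.473 to 0.671). The Mir299a hairpin breaks this run. Its 5p arm was higher in AICAR, with 253 reads (13.4 RPM) in DMSO and 408 (19.3 RPM) in AICAR, a ratio of 1.44 (1.23 to 1.69, or 1.06 relative to hairpin reads), while its 3p arm was lower, at 26.3 and 18.9 RPM (0.718, 0.628 to 0.821). Of the reads of Mir299a, 12 in DMSO and 6 in AICAR also match Mir299b on the other strand and cannot be assigned to one of them. miR-380-3p had 36.4 and 24.6 RPM (0.677, 0.603 to 0.760), and miR-380-5p stayed below 5 RPM in both libraries. miR-1197-3p had one of the lowest ratios of the stretch, with 104 reads in DMSO and 24 in AICAR (0.206, 0.127 to 0.324).

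After Mir323 come 2 hairpins whose arms differ in direction or go against the others. miR-758-5p had 306 reads (16.2 RPM) in DMSO and 105 (4.98 RPM) in AICAR, a ratio of 0.307 (0.244 to 0.384), whereas miR-758-3p had only 21 and 30 reads, with an interval of 0.708 to 2.35 that includes 1. miR-329-3p was the most abundant arm with a higher level in AICAR, at 1916 reads (102 RPM) in DMSO and 2732 (130 RPM) in AICAR, a ratio of 1.28 (1.20 to 1.35), which was 0.938 relative to hairpin reads. Its partner miR-329-5p was close to equal, at 17.8 and 18.2 RPM (1.02, 0.881 to 1.19). miR-494-3p went from 152 to 108 RPM (0.714, 0.676 to 0.755). miR-1193-5p, which shares its seed with miR-379-5p, had 1201 reads (63.6 RPM) in DMSO and 541 (25.7 RPM) in AICAR, and its ratio of 0.403 (0.363 to 0.446) lies inside the counting interval of miR-379-5p. For miR-666-5p the levels were 19.6 and 9.91 RPM (0.507, 0.426 to 0.602), and miR-666-3p, with 14 and 23 reads, gave the highest compared ratio of 1.47, with an interval of 0.725 to 3.09.

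The middle of the stretch held arms with moderate ratios. miR-495-3p had 229 RPM in DMSO and 150 in AICAR (0.654, 0.624 to 0.685). Of the related miR-376 hairpins, miR-376a-3p had 324 and 236 RPM (0.729, 0.702 to 0.757), miR-376b-3p 27.7 and 17.3 RPM (0.624, 0.545 to 0.715) and miR-376c-3p 16.6 and 11.2 RPM (0.677, 0.570 to 0.805). Over tags of at least 21 nt their ratios were further apart, at 0.974 (0.930 to 1.02), 0.645 (0.562 to 0.740) and 0.695 (0.583 to 0.827). miR-487b-3p was nearer equality, at 97.1 and 82.5 RPM (0.850, 0.796 to 0.908). Below it in level, miR-300-3p had 184 reads in DMSO and 102 in AICAR (0.496, 0.385 to 0.635), and miR-381-3p only 33 and 8 (0.217, 0.0866 to 0.479). The minor arms miR-1193-3p, miR-543-5p, miR-495-5p and miR-667-5p had at most 58 reads in a library, with ratios from 0.525 (miR-667-5p) to 0.855 (miR-543-5p). miR-539-5p and miR-667-3p stayed under 10 RPM, and Mir679, Gm27379 and Mir544 had too few reads to be compared.

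The hairpins within Mirg covered the range from the lowest ratio to ratios above 1. miR-134-5p, known in neurons as a brake on dendritic spine growth through Limk1 and in ES cells as a repressor of pluripotency factors, had 3148 reads (167 RPM) in DMSO and 1327 (62.9 RPM) in AICAR, a ratio of 0.377 (0.353 to 0.402). Of its neighbours in the exons, miR-485-5p, known to act on the synaptic vesicle protein Sv2a, went from 362 to 219 RPM (0.606, 0.583 to 0.629) and miR-485-3p from 198 to 145 RPM (0.735, 0.700 to 0.771). miR-377-5p had 14.6 and 6.40 RPM (0.439, 0.355 to 0.542), while miR-377-3p, at 6.09 and 5.74 RPM, had an interval of 0.723 to 1.23 that includes 1. miR-410-5p had the lowest ratio of all compared arms of the stretch, with 166 reads (8.80 RPM) in DMSO and 29 (1.37 RPM) in AICAR, a ratio of 0.156 (0.102 to 0.233). Its partner miR-410-3p, the last abundant 3p arm of the cluster, had 25 and 16.5 RPM (0.660, 0.573 to 0.759).

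Among the intronic and boundary hairpins, the 3p arm had the lower ratio at Mir154, Mir541 and Mir409, and the 5p arm at Mir369 and Mir3072. At Mir382 and Mir412 the intervals of the arms overlapped. miR-154-3p had 902 reads (47.8 RPM) in DMSO and 489 (23.2 RPM) in AICAR, a ratio of 0.485 (0.434 to 0.542), beside 13.3 and 10 RPM for miR-154-5p (0.752, 0.623 to 0.907). miR-541-3p had 57 and 20 reads (0.314, 0.179 to 0.531), far below its 5p partner in level. miR-409-3p went from 169 to 104 RPM (0.615, 0.582 to 0.650), whereas miR-409-5p was level at 15.6 and 15.3 RPM (0.980, 0.834 to 1.15). miR-496a-3p had 17.9 and 9.06 RPM (0.506, 0.421 to 0.606), and miR-412-5p had 39 and 20.4 RPM (0.525, 0.465 to 0.592). miR-412-3p had 26 and 14 reads, a ratio of 0.482 with an interval up to 0.957. miR-369-3p, known for its action on AU-rich elements of the TNF mRNA, had 29.4 and 23.9 RPM (0.812, 0.719 to 0.918), and miR-369-5p had 23.0 and 13 RPM (0.565, 0.484 to 0.659). miR-668-3p was level, at 152 and 175 reads (1.03, 0.824 to 1.29). The last hairpin, Mir3072, had arms of opposite direction: miR-3072-5p went from 151 to 48 reads (0.284, 0.201 to 0.396) and miR-3072-3p from 147 to 208 (1.27, 1.02 to 1.57, or 0.931 relative to hairpin reads).

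**Figure D2:**
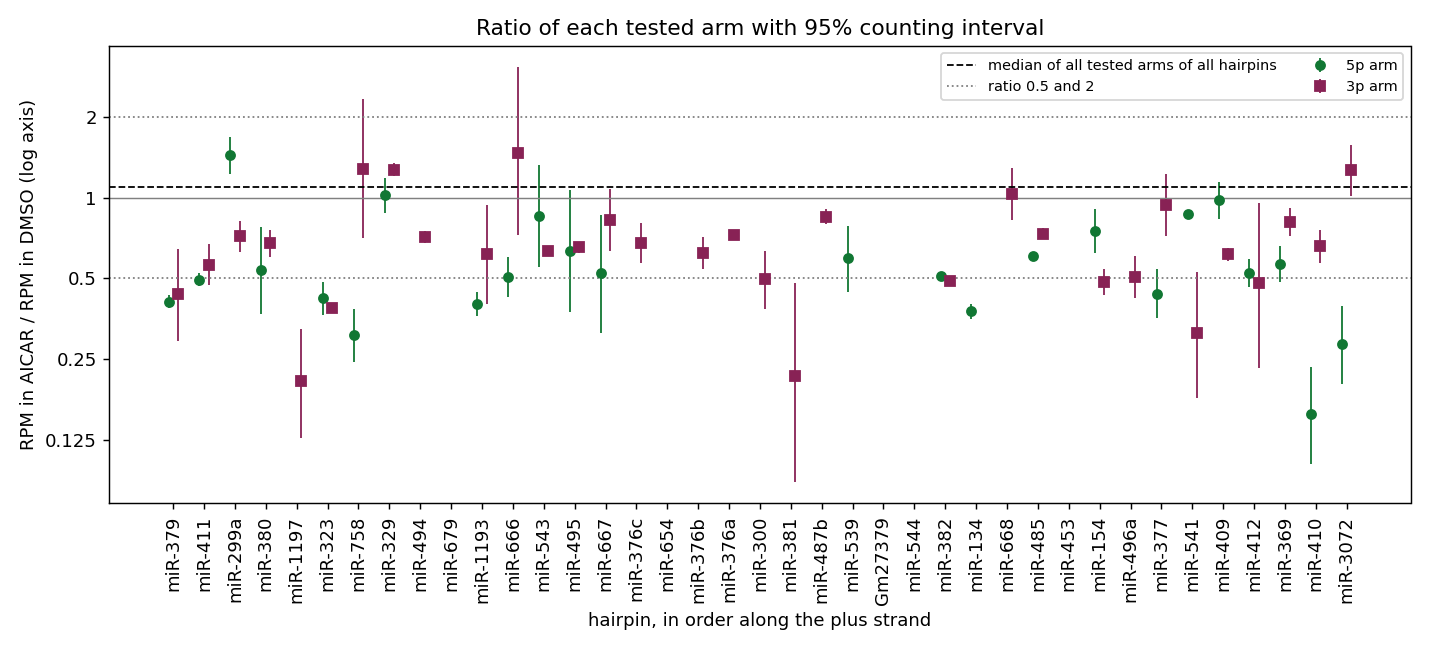
Ratio of RPM in AICAR to RPM in DMSO for each compared arm on a log axis, in hairpin order, with 95% counting intervals; dotted lines mark 0.5 and 2 and the dashed line the median of all compared arms of all hairpins, 1.10. No point reaches 2, and the lowest are miR-410-5p (0.156), miR-1197-3p (0.206) and miR-381-3p (0.217).

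The 18 arms at or below 0.5 comprised 9 5p and 9 3p arms, and only Mir379 and Mir323 had both arms among them, of 22 hairpins with both arms compared. With 1 mismatch allowed, miR-379-3p was no longer among them. For 10 of the 18 the upper end of the counting interval was also at most 0.5, and 3 of them had fewer than 100 reads in both libraries together. Arms just inside the bound were miR-300-3p (0.496) and miR-411-5p (0.495). Just outside it were miR-496a-3p (0.506), miR-666-5p (0.507) and miR-382-5p (0.512), and the interval of each of these 5 arms includes 0.5.

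The balance of the arms within a hairpin does not depend on the total used for scaling. It was compared for the 32 hairpins with at least 20 reads in each library. In DMSO, 9 of them had over 90% of their reads on the 5p arm, 12 had under 10%, and 11 lay between. The 95% exact conditional interval of the odds ratio between the libraries excluded 1 for 12 hairpins (37.5%), beside 31.9% of the hairpins outside the stretch, so the members are near the background in this respect. The largest shift in points was at Mir3072, where the 5p arm had 50.7% of the reads in DMSO (95% Wilson interval 45 to 56.3) and 18.8% in AICAR (14.4 to 24). Mir410 went from 26.0% (22.8 to 29.6) to 7.69% (5.41 to 10.8), but this shift rests on tags under 21 nt: over longer tags the 5p shares were 3.59% and 1.98%, and the interval of the odds ratio included 1. The 5p share was also lower in AICAR at Mir377, from 70.5% (65.8 to 74.8) to 52.7% (46.6 to 58.8), and at Mir758, from 93.6% (90.4 to 95.8) to 77.8% (70.1 to 84.0). The opposite direction was seen at Mir299a, from 33.8% (30.5 to 37.2) to 50.6% (47.2 to 54.1), and at Mir154, from 21.8% (19.5 to 24.2) to 30.1% (26.9 to 33.6). Mir409 (8.46% and 12.8%) and Mir541 (99.3% and 99.8%) also moved towards the 5p arm, while Mir666 (96.3% and 90.1%), Mir369 (43.9% and 35.2%), Mir485 (64.7% and 60.1%) and Mir329 (14.9% and 12.3%) moved towards the 3p arm. The arm with more reads differed between the libraries at Mir299a and Mir3072 only, and at both the interval of 1 library includes an equal split. At the other 20 hairpins the interval included 1, among them the main sources of reads, Mir323 (2.42% and 2.62% on the 5p arm) and Mir382 (72.7% and 73.7%). Mir323 did not keep this balance over tags of at least 21 nt, where its 5p shares were 7.63% and 5.31% and the odds ratio 0.679 (0.585 to 0.787). Over such tags the interval again excluded 1 for 12 hairpins, with Mir323 in place of Mir410.

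**Figure D3:**
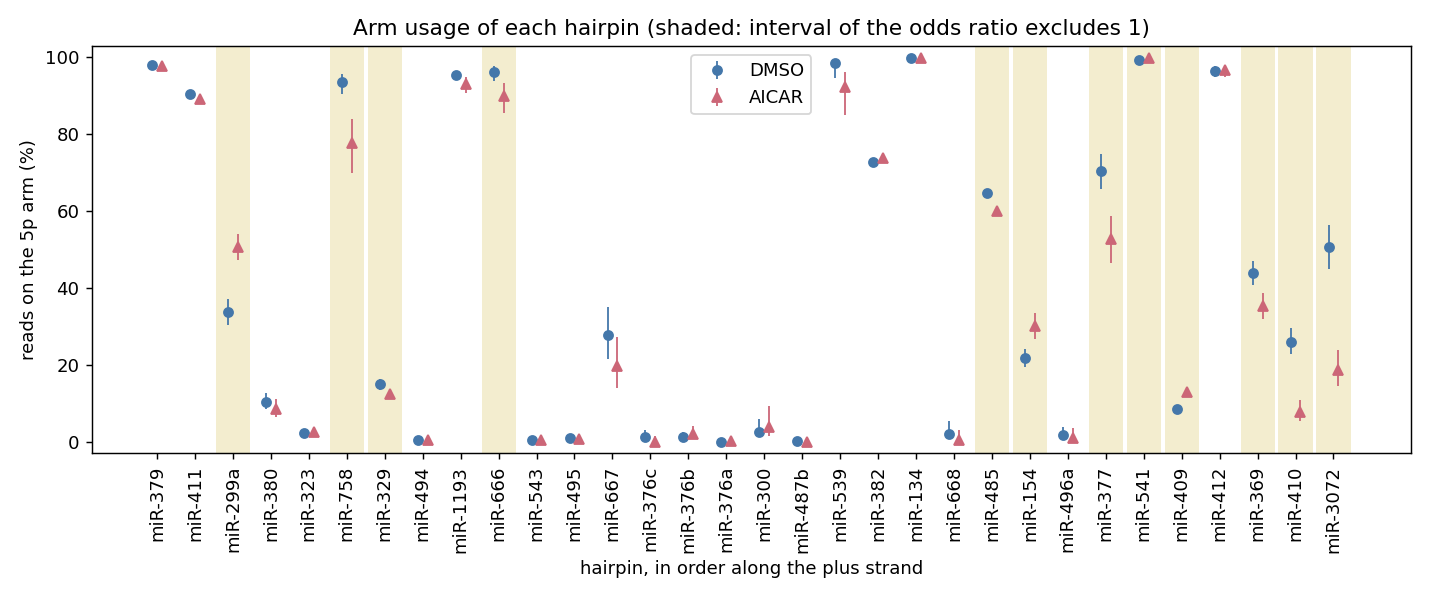
Percent of the arm reads of each hairpin that lie on its 5p arm, in DMSO (circles) and AICAR (triangles), with 95% Wilson intervals; shading marks the 12 of 32 hairpins for which the interval of the odds ratio excludes 1. The widest gap is at miR-3072, from 50.7% to 18.8%.

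The tags of the stretch were shorter than those of other hairpins, and shorter in DMSO than in AICAR. Tags below 21 nt made up 33.4% of its arm reads in DMSO (33.1 to 33.6) and 19.8% in AICAR (19.5 to 20.1). Over all other hairpins the same shares were 7.96% and 3.38%, so the direction was shared with the rest of the libraries. The share of 19-nt tags went from 16.8% to 9.09% and that of 22-nt tags from 27.1% to 33.6%. As a result the ratio of AICAR to DMSO depended on length: it was 0.341 (0.335 to 0.348) for tags under 21 nt and 0.692 (0.685 to 0.699) for tags of at least 21 nt, beside 0.598 and 1.48 over all other hairpins. A large share of the short tags came from miR-323-3p. Without that arm the short share was 22.6% in DMSO and 13.8% in AICAR, and the ratio of the sum of the stretch was 0.627 in place of 0.575.

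**Figure D4:**
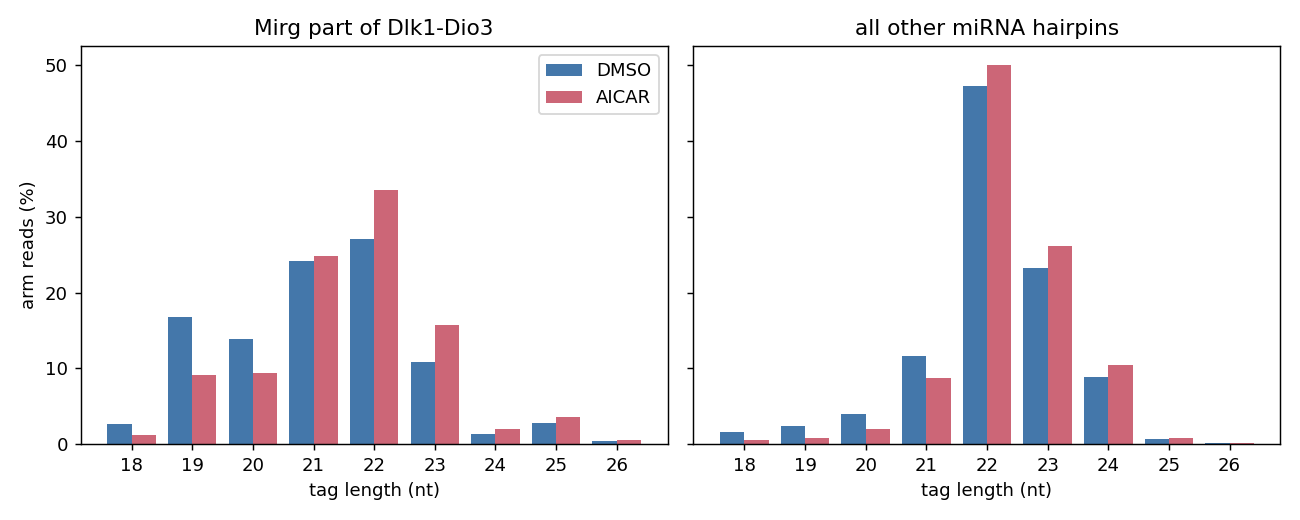
Percent of arm reads at each tag length in nt for the Mirg stretch and for all other hairpins, in DMSO and AICAR, 1 library each. The stretch has 16.8% of its reads at 19 nt in DMSO and 9.09% in AICAR, against 2.40% and 0.811% for the other hairpins.

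Short tags were concentrated on a few arms. Of the 44 arms described by their values, which are those of at least 10 RPM or at or below 0.5, 10 had over 40% of their reads below 21 nt in DMSO, and these 10 held 93.0% of the short reads of the stretch. Of the 44, 35 had a smaller short share in AICAR than in DMSO. The same direction was seen in the sum of all other hairpins (7.96% and 3.38%), whose arms were not counted 1 by 1. miR-323-3p is the clearest case: its 19-nt tag had 13855 reads in DMSO and 4461 in AICAR (ratio 0.288, 0.278 to 0.298), and its 21-nt tag, the annotated sequence printed above, 5164 and 3543 (0.614, 0.588 to 0.641). miR-382-5p showed the same order, with 5158 and 2125 reads for its 20-nt tag (0.369) and 2661 and 2806 for the annotated 22-nt one (0.943, 0.894 to 0.995). For miR-376a-3p the annotated 21-nt tag was level, at 3015 and 3360 reads (0.997, 0.949 to 1.05), while its 19-nt tag had 1429 and 645 (0.404) and its 18-nt tag 878 and 294 (0.300). miR-410-3p also had a level full-length tag, with 239 and 243 reads at 21 nt (0.910, 0.758 to 1.09). The ratio of its partner miR-410-5p rests on short tags, since 157 of its 166 reads in DMSO and 24 of 29 in AICAR were under 21 nt, and the ratio over longer tags, with 9 and 5 reads, had an interval of 0.131 to 1.65.

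Differences between tag lengths were not limited to tags under 21 nt. The most frequent tag of miR-541-5p, of 25 nt, had 3194 and 2584 reads (0.724, 0.687 to 0.763), and its 22-nt tag had 2000 and 2584 (1.16, 1.09 to 1.23). The 23-nt tag of miR-543-3p was level at 2184 and 2407 reads (0.986, 0.930 to 1.05), its annotated 22-nt tag had 6484 and 4173 (0.576), and its 20-nt tag 543 and 149 (0.246). Some arms behaved otherwise. In miR-379-5p the short share was higher in AICAR, at 6.96% in DMSO and 11.9% in AICAR, and its 22-nt tag had the lower ratio, 0.243, beside 0.704 for its 20-nt tag. miR-134-5p and miR-154-3p consist almost wholly of longer tags, with under 4% short reads in both libraries, and their ratios over tags of at least 21 nt were 0.379 (0.355 to 0.405) and 0.488 (0.436 to 0.545). Counted on tags of at least 21 nt alone, 13 of the 18 arms still had a ratio of at most 0.5 and at least 1 RPM in a library. miR-323-3p (0.627), miR-382-3p (0.674) and miR-411-5p (0.620) were above 0.5, and miR-410-5p and miR-381-3p had fewer than 10 longer tag reads in each library. Over such tags, 14 of 53 compared arms of the stretch were at or below 0.5, beside 33 of 486 compared arms of all hairpins.

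**Figure D5:**
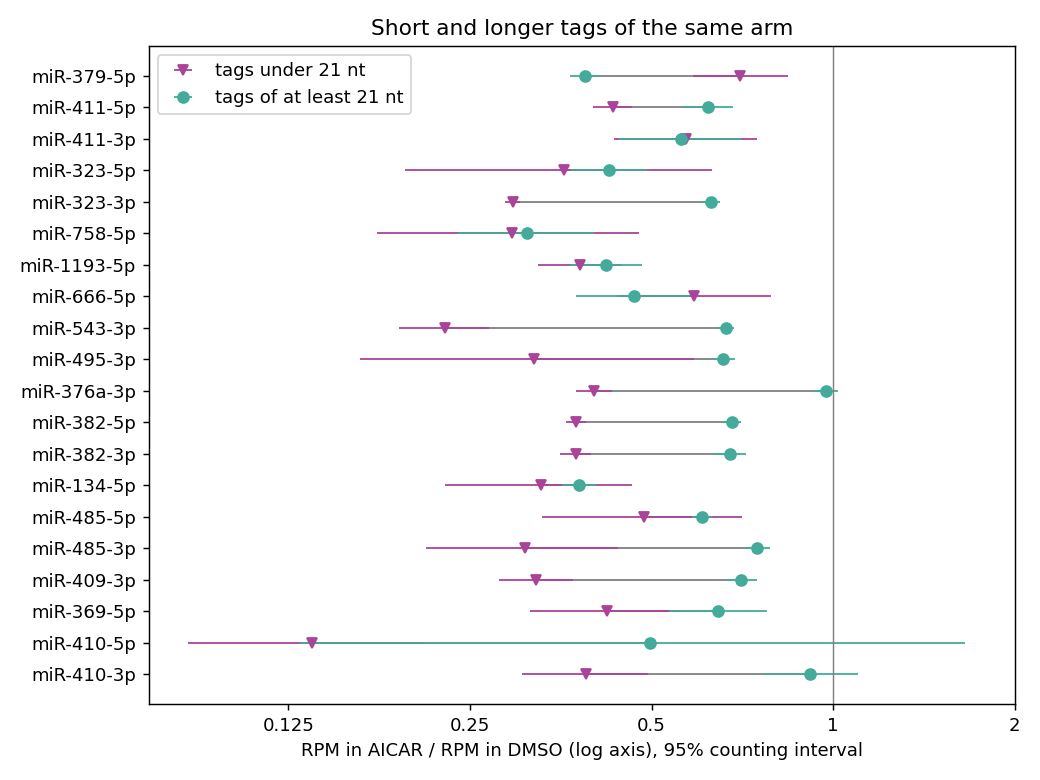
Ratio of AICAR to DMSO for tags under 21 nt (triangles) and of at least 21 nt (circles) of the 20 arms with at least 50 short reads, on a log axis with 95% counting intervals. The triangle lies left of the circle in 17 of the 20 arms, as for miR-323-3p (0.294 and 0.627), and right of it for miR-379-5p (0.702 and 0.388). Summed over all other hairpins, which are not drawn, the ratios were in the same order, 0.598 and 1.48.

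The 5′ ends, which set the seed, were mostly those annotated. Of the reads on the 66 arms with a RefSeq mature sequence, 85.5% in DMSO and 85.9% in AICAR started at the annotated base. The most frequent tag started there in 37 of the 41 described arms with such a sequence, was identical to it in 22 and ended before its 3′ end in 14. miR-382-3p was an exception. Its most frequent tag started 2 bases before the annotated start, and 0.0167% of its reads in DMSO and 0% in AICAR used the annotated one. In miR-300-3p, 44% and 50% of the reads started 1 base after the annotated base and 40.8% and 33.3% started 2 bases after it, against 13% and 12.7% at that base. In miR-541-3p, 57.9% and 65% of the few reads started 2 bases before the annotated base, and in miR-412-3p 73.1% and 57.1% started 1 base before it. Outside the 41 arms, the most frequent tag of miR-377-3p started 3 bases before the annotated base, where 0% of its 115 and 121 reads started. The most frequent tags of miR-382-3p, miR-300-3p, miR-541-3p and miR-412-3p are printed here, plus strand, GRCm38. They are shown because they carry other bases at positions 2 to 8 (capitals) than the annotated sequences above. For miR-541-3p, another tag with the same start had as many reads.
miR-382-3p, most frequent tag (chr12:109733817-109733836): aAUCAUUCacggacaacacu
miR-300-3p, most frequent tag (chr12:109724364-109724385): aUGCAAGGgcaagcucucuucg
miR-541-3p, most frequent tag (chr12:109742464-109742486): aGUGGCGAacacagaauccauac
miR-412-3p, most frequent tag (chr12:109743339-109743360): cUUCACCUgguccacuagccgu

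Tags with 1 mismatch to an arm were examined because miRNAs of this cluster are known in brain as substrates of adenosine deaminases, which turn A into inosine, read as G. Of 577 substitutions seen at positions with at least 100 covering reads, the median was 0.0223% of covering reads and 6 exceeded 1%. The 2 highest were at the same position of related arms. In miR-376b-3p, A6G, counted from 1 at the 5′ end of the most frequent tag, was found in 14 of 537 covering reads in DMSO (2.61%, 1.56 to 4.33) and 13 of 378 in AICAR (3.44%, 2.02 to 5.79). In miR-376c-3p it was found in 4 of 317 (1.26%, 0.492 to 3.20) and 11 of 248 (4.44%, 2.49 to 7.77). The intervals of the libraries overlap in both arms. Position 6 lies in the seed, and the affected base is in capitals below, in the annotated sequence of miR-376b-3p from RefSeq (GRCm38.p6, plus strand) and with the substitution.
miR-376b-3p, annotated (chr12:109723508-109723528): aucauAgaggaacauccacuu
miR-376b-3p, with the substitution A6G (chr12:109723508-109723528): aucauGgaggaacauccacuu

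Reads of tags near more than 1 arm, 21 in DMSO and 37 in AICAR, were left out of the substitution counts. Over the whole stretch, substitutions at A read as G in 87 and 77 reads, as T in 44 and 24, and as C in 19 and 18, in DMSO and AICAR. C read as T was more frequent, with 210 and 134 reads. Extra bases at the 3′ end that the hairpin does not hold were also counted. An added A was present in 2.34% of the reads in DMSO (2.26 to 2.43) and 2.98% in AICAR (2.86 to 3.10), and an added U in 1.19% (1.13 to 1.25) and 2.01% (1.91 to 2.11). Other hairpins had more of both, at 3.73% and 3.94% for A and 3.83% and 4.33% for U. Added U was unevenly spread. It was present in 26.5% and 33.5% of the reads of miR-411-3p and in 10.3% and 15.6% of those of miR-134-5p, but in only 0.0724% and 0.0438% of those of miR-323-3p. Tags near more than 1 arm were kept in the counts of added bases. The value of miR-411-3p can therefore take in tags near the similar miR-379-3p.

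The 19 hairpins on the same strand just before Mir379, which belong to Meg3, Rian and the transcript antisense to Rtl1, are the closest comparison. Their sum had 49620 reads in DMSO and 40353 in AICAR, a ratio of 0.728 (0.718 to 0.737), beside 0.575 for the Mirg stretch. Their median arm ratio was 0.585, beside 0.610 in the Mirg stretch, and 91.3% of their arms were below 1. Of their 23 compared arms, 9 (39.1%) were at or below 0.5, beside 18 of 56 in the Mirg stretch. A single arm, miR-434-3p, had a ratio of at least 2, with 3575 and 10057 reads and a ratio of 2.52. Without it the sum of the neighbours had a ratio of 0.589 (0.580 to 0.597). The 6 hairpins antisense to Rtl1 summed to a ratio of 0.790 (0.779 to 0.801) and the other 13 to 0.411 (0.396 to 0.428), and miR-434-3p belongs to the former.

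Marker miRNAs were used to check the cells. The miR-290 to miR-295 and miR-302 hairpins of ES cells summed to 31117 RPM in DMSO and 53946 in AICAR, with 9 of 10 listed hairpins found. Nearly all of this came from the miR-290 group, with ratios from 1.64 (Mir293) to 2.48 (Mir291a), while the miR-302 hairpins had at most 10.4 RPM and were lower in AICAR, with ratios of 0.227 for Mir302a, 0.404 for Mir302b and 0.878 for Mir302d and 3 and 0 reads for Mir302c. Mir122, the liver marker, stood at 2.91 RPM in DMSO and 25.4 in AICAR. Lists for other cell types had lower sums, with 3974 and 6029 RPM for fibroblasts or differentiated cells, 302 and 455 for neural cells, 161 and 205 for muscle, and 16.5 and 15.8 for blood, where Mir223 was at 0 in both libraries, as was Mir214 of the fibroblast list. In the fibroblast list the sum was mostly Mirlet7c-1 (3233 and 5147 RPM). Mirlet7b (ratio 1.69) and Mir21a (1.14) were also higher in AICAR, and Mir199a-1 and Mir199a-2 were level (0.991). The muscle sum was mostly Mir1a-1 and Mir1a-2 (ratio 1.29 each), while Mir206 was lower (0.516). In the neural list the sum was mostly Mir124a-1 (257 and 410 RPM). Mir219a-1 was also higher in AICAR (ratio 1.52), while Mir9-1, Mir9-2, Mir9-3 and Mir219a-2 were lower (ratios from 0.535 to 0.918). All hairpins outside the stretch had a ratio of 1.41. Fewer cells with a given miRNA and less of it per cell cannot be told apart in such bulk libraries, and the part of cell composition in these ratios was not tested.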

How the data were processed

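The authors selected small RNA by size, added adaptors, amplified and sequenced 1 library per condition, removed low-quality and contaminant reads, and deposited, for each library, a list of distinct tags with their read counts. The submitters' processing notes name the genome build mm9. The tag lists hold no alignments, and no step here used mm9 coordinates. Here, tags of 18 to 44 nt were matched without mismatch to the GENCODE hairpins (GRCm38). Each arm took the tags whose 5′ end lay within 2 nt and 3′ end within 4 nt of its most frequent tag. A tag matching several hairpins was counted in full for each arm, but only 1 time in a sum over hairpins. Hairpin copies with the same most frequent tag on an arm were taken as 1 arm. Counts were divided by clean reads, and 1 RPM in at least 1 library was required for a comparison. Ratios have 95% exact binomial intervals and shares 95% Wilson intervals, covering counting error only. With 1 library per group, no count model was fitted. Scripts ran in Python 3.11.15 with scipy 1.17.1, and edgeR 4.0.16 in R 4.3.3 gave TMM factors for an alternative scaling. The matching and calls were tested on simulated counts of the most frequent tag of each arm only, which did not test the windows around it. Arms of at least 10 RPM in at least 1 library, and those with a ratio of at most 0.5 or at least 2, are described by value, and others by count and range or where a partner arm is discussed. The members, marker lists and alternatives were chosen with earlier results of these data known. Mature sequences came from RefSeq (GRCm38.p6). miR-376c-3p, miR-487b-3p, miR-485-5p and miR-539-3p are named without a sequence. Alternatives changed the scaling, tag lengths, tag ends, mismatches, filter and fold.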

Additional observations from a re-analysis of the deposited data

How the results depend on the processing

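No arm of the stretch reached a ratio of 2 in any alternative run except without the filter on low values, which gave 3 such arms, each with few reads. Relative to hairpin reads, 37 of the 56 arms had a ratio of at most 0.5, beside 113 of all 508 compared arms. The ratio of the sum was then 0.423 and the median log2 ratio -1.16. The ratio of the sum was 0.537 with TMM scaling and 0.525 with median-ratio scaling, which gave a median of -0.84. With tags of at least 21 nt it was 0.692, with a median of -0.61. It was 0.557 when each arm was counted by its most frequent tag alone, and 0.586 with 1 mismatch allowed. The count of arms at or below 0.5 was 10 of 36 with a filter of 10 RPM. With a fold of 1.5 in place of 2, 35 of 56 arms were lower. The shares over all hairpins under these settings are not given here, so these counts have no background beside them. Without miR-323-3p, an alternative chosen after seeing the data, the sum gave 0.627 and the short shares were 22.6% and 13.8%. All these sums and medians kept their direction. Among the ratios of single arms and 5p shares of single hairpins under these settings, 457 moved by less than the counting interval and 111 by more. With 1 mismatch allowed, miR-379-3p had a ratio of 0.756 in place of 0.437, in a count that can take in tags near miR-411-3p. The sum of the neighbouring hairpins was 0.589 without miR-434-3p, also chosen after seeing the data. No paired analysis was possible because each condition has 1 library. Matching tags to the whole genome was not run, as no genome sequence was used here, but leaving out tags found in another GENCODE transcript changed no count. Depth limits the arms of a few RPM, and the replicate error of the sequencing ratios is unknown.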

Other observations

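Some reads of the hairpins lay outside the windows of both arms and entered no comparison. Mir485 had 751 such reads in DMSO and 502 in AICAR, Mir409 had 544 and 200, and Mir541 had 344 and 148. No tag matched only the strand opposite to a hairpin of the stretch.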
